A study of Mus musculus with 60 samples.

Results

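Stool collected after 1 week of gavage with nanoplastic made of polyethylene terephthalate (PET), a polyester used for drink bottles, was set against stool of unexposed mice of the same time. The members are 12 of the 60 libraries of the series, chosen by their labels for stool and for exposure after 1 week: 6 PET libraries, from male mice given 0.5 mg PET nanoparticles a day in 0.1 ml by oral gavage in a 28 day schedule, and 6 control libraries, from male mice not exposed. The series had 12 male mice, 6 in each arm; the labels used here give neither strain, age nor cage, and do not say whether control mice were gavaged. The V3 to V4 part of the bacterial 16S rRNA gene was amplified, sequenced and counted as sequence features, each a distinct sequence. A feature is called here by its genus label and by its rank in mean share within that label over the 12 libraries. A share is the percentage of a library's prokaryote counts. Of 7922 prokaryote features in the table, 2476 were detected in these libraries, 1575 of them in 1 library, and 728 passed a filter of 10 counts in all and a count above 0 in 3 libraries. These 728 held 96.6% of the counts and fell under 110 genus labels.

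Mouse stool is dominated by strict anaerobes of a few families. Muribaculaceae, Bacteroidaceae, Rikenellaceae, Marinifilaceae and Prevotellaceae are Bacteroidales that break down plant and mucin glycans, and Lachnospiraceae, Oscillospiraceae and the uncultured Clostridia vadinBB60 group are clostridial fermenters. A genus can keep its total while 1 of its members takes the place of another, a replacement that only counts below the genus can show. The comparison asks whether the first week of exposure changed single features, the balance between families or the make-up of genera. Shares are relative: more of a feature and less of the others cannot be told apart.

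PET libraries held 288601 to 1082777 prokaryote counts and 411 to 1656 features, and control libraries 16513 to 568848 counts and 180 to 584 features. Control library 1 stands apart for its depth, 3.97% of the median, and PET library 6 for its features, 1037 of which occurred in no other week 1 stool library (2 to 82 in each of the other 11). Those 1037 held 5.66% of its counts. The share that 3 counts make, up to which a count of 0 leaves a feature open, was 0.0182% in control library 1 and at most 0.00104% in the other 11. Amplicon counts carry no molecular identifiers, so such limits cover counting error only. Sample numbers in the labels run without a break within each arm, control then PET, so that library order and arm cannot be told apart. Genera of the rodent mouth and airway summed to 0.00662% ± 0.00969 in PET and 0.00465% ± 0.00371 in control libraries (SD, n = 6 each, here and below). No label ties a library to a cage or to a mouse across times, and the p-values measure the spread between libraries.

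No single feature passed the threshold after the first week. The quasi-likelihood test of edgeR called 0 of 728 features (0%) at an adjusted p of 0.05, with the lowest adjusted p at 0.211. At an unadjusted p under 0.05 it placed 58 features (7.97%), 47 higher in PET (6.46%) and 11 lower (1.51%). Of all 728, 435 had a positive log2 fold change of PET over control and 293 a negative one, with a median of 0.29. With 1 library left out the median ran from 0.10, without PET library 6, to 0.40, without control library 3. Features at an unadjusted p under 0.05 in edgeR numbered 36 without PET library 6, in a range of 35 to 67 over these fits. DESeq2 called 8 features (1.19% of 671 with an adjusted p), 5 higher and 3 lower, and limma on centred log ratios called 1 (0.137%). Spread between mice was wide: the median standard error of a feature's log2 fold change was 2.08, with quartiles of 1.69 and 2.35. Of 151 features with a mean share of 0.1% or more, 63 were detected in all 12 libraries, 86 in both arms but not in every library, 2 in PET libraries alone and 0 in control libraries alone. The median of those features differed between its highest and lowest library by 6.81 on the log2 scale within PET and by 7.79 within control. Where a feature had 0 counts, this range rests on a small constant added to each share. The depth of control library 1 also enters: 77 of the 151 features were in all 6 control libraries, and 88 in control libraries 2 to 6.

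The feature of lowest p was Helicobacter feature 3, which the deposited lineage places in Helicobacter ganmani, a species known from the mouse intestine (classifier confidence 0.727). It took 2.13, 3.87, 0, 5.41, 0.0248 and 0.0113% of PET libraries 1 to 6, and had 0 counts in all 6 control libraries. PET libraries 1, 2 and 4 thus carried it as a major member, 5 and 6 as traces, and PET library 3 overlapped with control at 0. A count of 0 among 2243875 pooled control counts allows a share of up to 0.000134%, and the pooled PET share was at least 11554-fold higher (edgeR adjusted p = 0.211). With DESeq2 the adjusted p was 9.65e-35, with the exact permutation test it was 0.788, and it was 0.0315 with edgeR when PET library 3 was left out, so that the call differed between tools. Unexposed mice also held the feature at another time or site: day 28 stool had it in control library 6 at 5.66%, and all 6 PET and all 6 control oral swabs of day 28 held it, at means of 0.137% in PET and 0.0817% in control swabs.

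Helicobacter as a genus took 5.47% ± 2.01 of PET and 5.33% ± 2.28 of control libraries, while its leading member differed between libraries. In PET libraries 1, 2 and 4 Helicobacter feature 3 made up 51.8, 83.7 and 66.95% of the genus. In the same 3 libraries Helicobacter feature 2, placed in H. typhlonius, made up 0.0924, 0.085 and 0% of it, against 40.9, 51.9 and 38.3% in PET libraries 3, 5 and 6 and 10.7 to 58.8% in control libraries. Libraries rich in the ganmani feature were thus those nearly without the typhlonius feature. Helicobacter feature 1, placed in H. apodemus, made up 0.666% of the genus in PET library 2, 22.01 to 44.6% in the other PET libraries and 23.9 to 67.4% in control libraries. Helicobacter feature 4, placed in H. mastomyrinus, was in every library, at 4.62 to 16.4% of the genus in PET and 2.31 to 21.1% in control. Bray-Curtis distances of the make-up averaged 0.5002 within PET and 0.29 within control libraries, and the arms did not separate (permutational test of distances, R2 = 0.256, exact permutation p = 0.113, adjusted p = 0.629 over 21 genus labels).

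**Figure D1:**
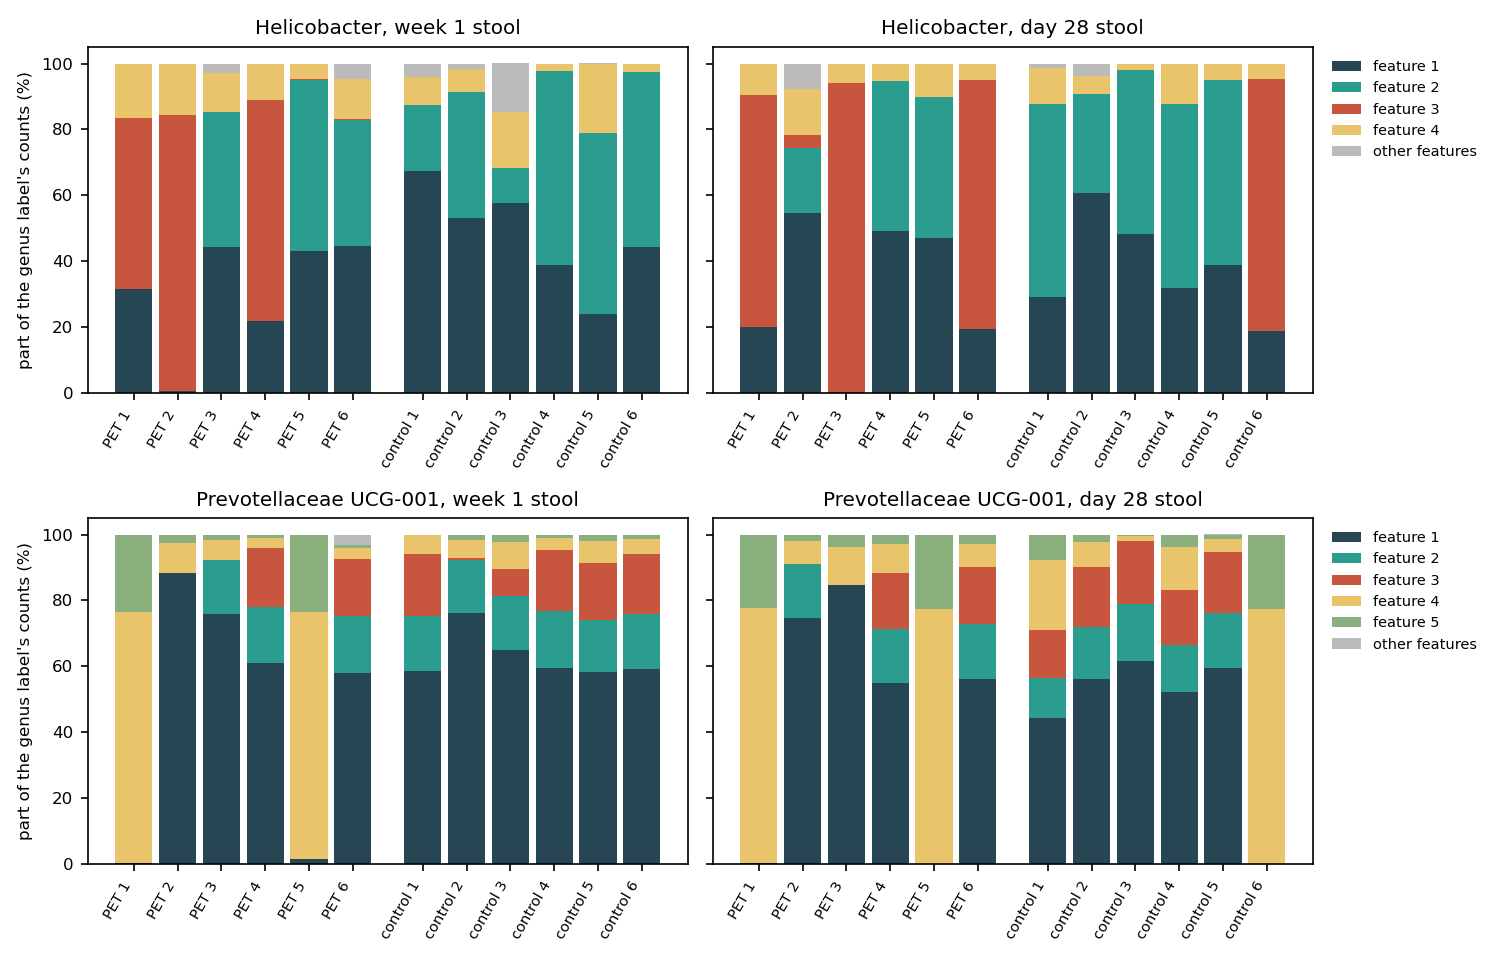
Part of each genus label's counts (%, stacked bars from 0) taken by its leading features in every stool library, PET left and control right, at week 1 (left panels) and day 28 (right panels). At week 1 Helicobacter feature 3 makes up 51.8 to 83.7% of the genus in PET libraries 1, 2 and 4, and Prevotellaceae UCG-001 features 4 and 5 fill PET libraries 1 and 5; at day 28 control library 6 shows both.

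Of the 6 other features of lowest p found in PET libraries alone, 3 were in PET libraries 1, 2 and 4 only. Odoribacter feature 8, of a genus of butyrate-forming Bacteroidales, took 0.206, 0.0258 and 1.22% of PET libraries 1, 2 and 4 and had 0 counts in the other 9 libraries (at least 1277-fold higher). Lachnospiraceae NK4A136 group feature 24 took 0.665, 0.261 and 0.032% of PET libraries 1, 2 and 4, and vadinBB60 feature 65 took 0.0486, 0.0386 and 0.0834% of them, again with 0 counts elsewhere (at least 1289-fold and 178-fold higher). These 3 features and the ganmani feature thus shared their high libraries. VadinBB60 feature 24 took 0.0489, 0.511 and 0.555% of PET libraries 1, 4 and 5 (at least 989-fold higher), and UCG-003 feature 1 took 0.289, 0.0157 and 0.0998% of PET libraries 1, 4 and 6 (at least 693-fold higher). Unclassified RF39 feature 3 stayed at or below 0.0371% in 4 PET libraries (at least 70.997-fold higher). All 6 had an edgeR adjusted p of 0.329, and DESeq2 called 4 of them, not vadinBB60 feature 65 and RF39 feature 3. Like Helicobacter feature 3, all 6 passed the filter through PET libraries alone. The DESeq2 log2 values of the 4 called were 25.7 to 27.9, sizes that an arm at 0 counts does not fix. In day 28 stool each of the 6 but vadinBB60 feature 65 was in at least 1 control library. VadinBB60 feature 24, UCG-003 feature 1 and RF39 feature 3 were in 5, 2 and 3 of the 6.

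A common feature was also higher in most PET libraries. VadinBB60 feature 1, of a group known mainly from sequences, took 3.62, 2.9, 0.319, 2.83, 0.118 and 3.39% of PET libraries 1 to 6, and 0.0951 to 0.481% of control libraries with a median of 0.355%. PET libraries 1, 2, 4 and 6 lay above every control library, and PET libraries 3 and 5 lay among them. Its log2 fold change was 2.83 ± 0.95 (standard error; edgeR adjusted p = 0.329).

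Among features lower in PET, Lachnospiraceae NK4A136 group feature 8 was the 1 feature of the 151 with a mean share of 0.1% or more whose arms did not overlap (0.662%). It had 0 counts in 5 PET libraries and 0.0127% in PET library 4, against 0.151, 0.474, 0.728, 0.288, 0.124 and 1.64% of control libraries 1 to 6. NK4A136 is a large genus-level group of Lachnospiraceae without a named species here. Mean shares were 0.00212% ± 0.00518 in PET and 0.568% ± 0.573 in control, the control mean 269 times the PET mean (log2 -8.16 ± 2.27, edgeR adjusted p = 0.329). The adjusted p was 0.00415 with limma on centred log ratios, 0.0107 with DESeq2, and 0.0114 with edgeR when PET library 4 was left out, over a range of 0.00415 to 0.9995 across the alternatives. At day 28 the same feature was in PET libraries 4 and 5, at 0.00133 and 1.07%, and in 5 of 6 control libraries, at up to 3.57%.

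The other 7 lowered features of lowest p were rare. VadinBB60 feature 49 took 0.0938, 0.177 and 0.0492% of control libraries 4, 5 and 6, and vadinBB60 feature 73 took 0.0252, 0.0724 and 0.00686% of the same 3 libraries. Neither had a count in a PET library (at least 664-fold and 209.6-fold lower). Day 28 stool did not enter the choice of features, but it shares animals with week 1 stool and is no independent check. There feature 49 was in 0 of 6 PET and 5 of 6 control libraries and feature 73 in 0 of 6 and 3 of 6 (edgeR adjusted p = 0.33 for each over the 737 features of that time). VadinBB60 feature 75 was in control libraries 2, 3 and 5 at 0.0105 to 0.0515% (at least 184-fold lower), and vadinBB60 feature 95 was in control libraries 2 to 6 at 0.00211 to 0.00707% (at least 39.8-fold lower). Clostridia UCG-014 feature 58 (at least 45.05-fold lower) and Lachnospiraceae UCG-010 feature 1 (at least 24.2-fold lower) were each in 3 control libraries, at up to 0.0104 and 0.0067%. Both, and vadinBB60 features 49, 73 and 75, thus passed the filter through 3 control libraries alone. Lachnospiraceae NK4A136 group feature 51 averaged 4.62e-05% in PET and 0.015% in control, where control library 1 held 0.0787%. Their edgeR adjusted p-values were 0.329 to 0.336, and DESeq2 called vadinBB60 features 49 and 95. Of the other rare features 4 were also in PET libraries at day 28: vadinBB60 feature 75 was in 2 PET and 4 control libraries, vadinBB60 feature 95 in 1 and 1, UCG-014 feature 58 in 2 and 1, and NK4A136 feature 51 in 2 and 2. UCG-010 feature 1 was in 0 PET libraries and 1 control library. Of the 8 features lower in PET, 4 were thus vadinBB60 and 3 Lachnospiraceae, and of the 8 higher, 3 were vadinBB60 and 1 was Lachnospiraceae; of all 728 features 83 were vadinBB60 and 231 Lachnospiraceae.

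**Figure D2:**
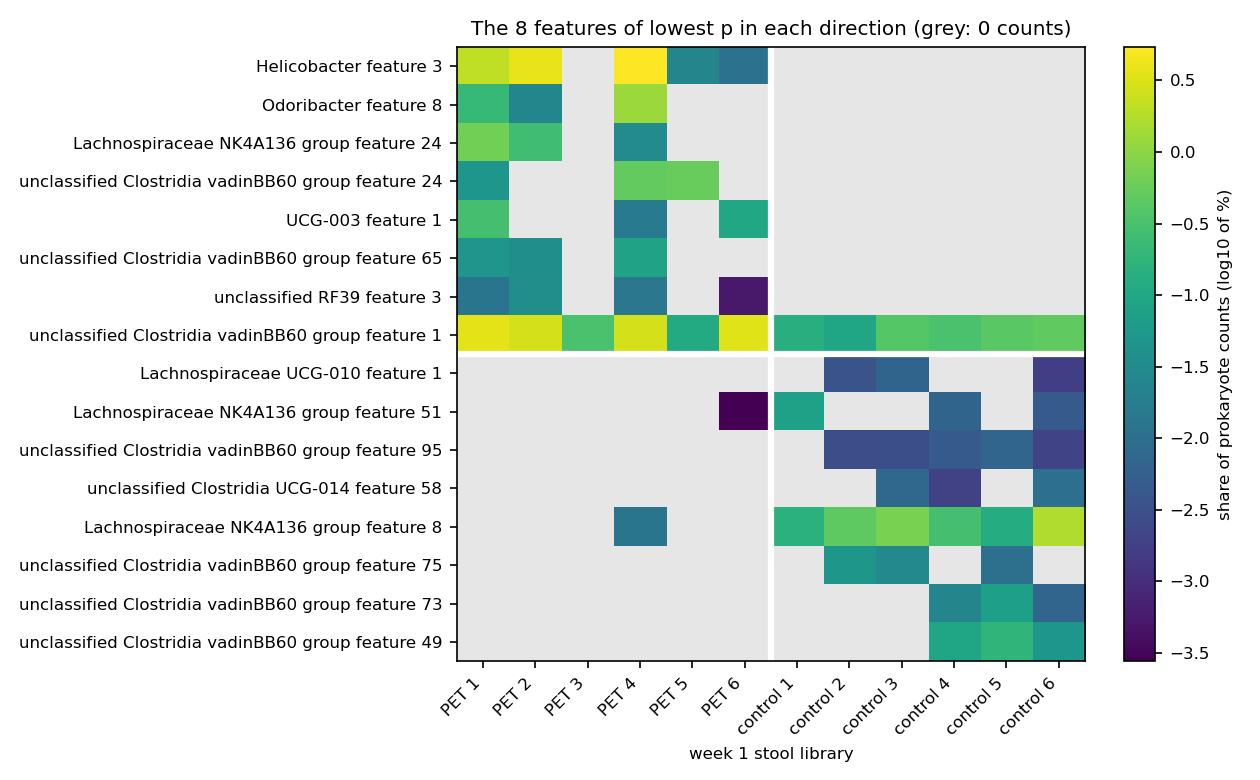
Share of prokaryote counts (log10 of %, colour; grey for 0 counts) of the 8 features of lowest edgeR p in each direction, by week 1 stool library, PET left and control right. The upper 8 features were higher in PET, mostly in PET libraries 1, 2 and 4; the lower 8 were higher in control, where Lachnospiraceae NK4A136 group feature 8 is the 1 present in all 6 libraries.

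The 12 most abundant features showed no difference beyond their spread, all with an edgeR adjusted p of 0.998. Bacteroides feature 1, placed in B. acidifaciens, a glycan degrader of the mouse gut, was the most abundant, at 8.7% ± 2.79 in PET and 8.6% ± 2.98 in control. Odoribacter feature 1 took 5.08% ± 3.26 and 4.01% ± 1.53, and Odoribacter feature 2 took 2.18% ± 0.66 and 1.65% ± 0.931, of PET and control libraries. Unclassified Muribaculaceae feature 1 ranged from 0.0986 to 6.36% in PET and from 0.46 to 12.3% in control, with medians of 0.592 and 1.21%. Anaeroplasma feature 1, a wall-less Mollicute, took 1.78% ± 1.02 of PET and 1.2% ± 0.882 of control libraries. Lactobacillus feature 1, a lactic acid producer, took 1.47% ± 0.962 and 1.31% ± 1.23. Lachnospiraceae were no steadier: unclassified Lachnospiraceae feature 1 ranged from 0.0206 to 5.83% in PET and from 0.0234 to 3.47% in control, feature 2 from 0.0495 to 2.88% and from 0.218 to 2.84%, and Lachnospiraceae NK4A136 group feature 1 from 0.0599 to 4.09% and from 0 to 2.6%.

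Among the 12 most abundant families, Rikenellaceae and Prevotellaceae had the lowest p, in opposite directions, and neither passed the threshold. Rikenellaceae, the family of the bile-tolerant glycan degrader Alistipes, took 10.9, 9.46, 7.67, 8.86, 7.34 and 10.5% of PET libraries 1 to 6, and 5.01, 8.48, 3.49, 4.79, 5.19 and 5.38% of control libraries 1 to 6. Only control library 2 reached into the PET range. Means were 9.11% ± 1.44 and 5.39% ± 1.65 (log2 0.63 ± 0.24, edgeR adjusted p = 0.219 over 59 families; exact permutation p = 0.00649, adjusted p = 0.128). Of its 24 tested features 21 had a positive fold change, with a median log2 of 0.89 against 0.29 over all features, and 1 had an unadjusted p under 0.05. Prevotellaceae, fibre degraders, took 2.62, 4.75, 7.61, 7.39, 0.733 and 7.56% of PET libraries 1 to 6, and 7.43 to 10.1% of control libraries, with a median of 8.24%. PET libraries 3 and 6 alone reached the control range. Means were 5.11% ± 2.93 and 8.44% ± 0.938 (log2 -0.89 ± 0.45, edgeR adjusted p = 0.42; exact permutation p = 0.00649, adjusted p = 0.128).

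edgeR called 0 of 59 families (0%), with 7 at an unadjusted p under 0.05 (11.9%). DESeq2 called 1, Coriobacteriaceae, at 0 to 0.0224% of PET libraries and 0% of control libraries (edgeR adjusted p = 0.183). Other rare families also had a lower p than Rikenellaceae: Mycoplasmataceae, at 0 to 1.29% of PET and 0 to 0.0066% of control libraries, Microbacteriaceae, at 0.00151 to 0.102% and 0 to 0.00214%, and Burkholderiaceae, at 0.0127 to 0.616% and 0 to 0.0121%, each with an edgeR adjusted p of 0.219. PET library 6 held the highest share of Coriobacteriaceae, Microbacteriaceae and Burkholderiaceae, and the other PET libraries at most 0.0041, 0.0035 and 0.0183%. The 1.29% of Mycoplasmataceae was in PET library 1. Without PET library 6, 3 of 55 families had an unadjusted p under 0.05 in edgeR. Lachnospiraceae, the largest family, took 20.1% ± 4.36 of PET and 19.8% ± 2.72 of control libraries, and Bacteroidaceae 12.9% ± 3.84 and 12.9% ± 4.79. Muribaculaceae took 9.45% ± 3.45 and 12.8% ± 4.34 (log2 -0.64 ± 0.37), and Marinifilaceae, here nearly all Odoribacter, 10.2% ± 3.09 and 7.6% ± 2.59. Clostridia vadinBB60 group took 8.74% ± 1.78 and 7.9% ± 2.43, Helicobacteraceae 5.47% ± 2.01 and 5.33% ± 2.28, and Lactobacillaceae 3.69% ± 1.37 and 5.21% ± 3.5. Oscillospiraceae took 3.29% ± 0.991 and 2.44% ± 0.624, Acholeplasmataceae 1.79% ± 1.02 and 1.2% ± 0.882, and Tannerellaceae, the family of Parabacteroides, 1.15% ± 1.08 and 2.22% ± 2.84. The adjusted p of these 10 families was 0.543 or higher. The median standard error of the log2 fold change was 0.35 over the 12 families and 1.02 over all 59, against 2.08 over all features.

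**Figure D3:**
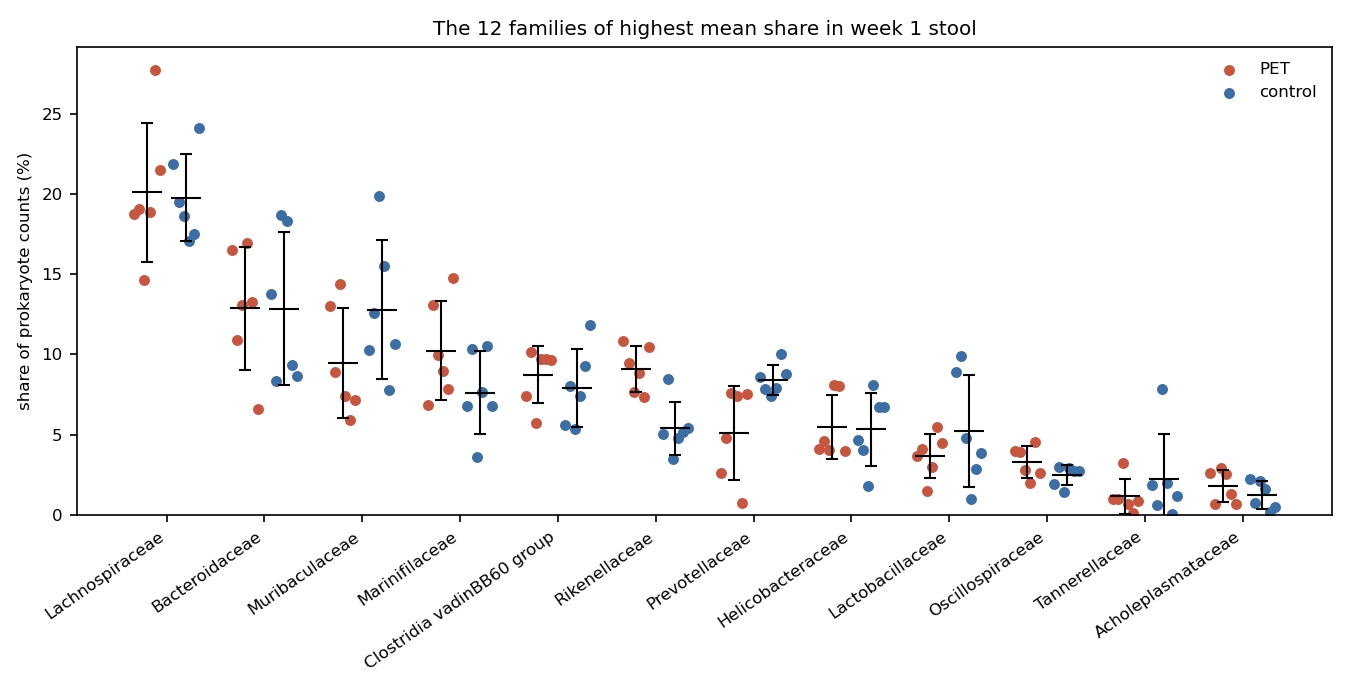
Share of prokaryote counts (%) of the 12 families of highest mean share in week 1 stool, a point per library, PET left and control right of each pair, with mean and SD (lower ends of SD bars stop at 0). Rikenellaceae lie at 7.34 to 10.9% in PET and 3.49 to 8.48% in control, and Prevotellaceae at 0.733 to 7.61% and 7.43 to 10.1%.

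Balances between families, the log2 ratio of their counts in a library, do not depend on the rest of the community. Of the 66 balances of the 12 families 0 passed the threshold (0%), and 7 had an unadjusted p under 0.05 (10.6%; exact two-sided permutation tests over 924 arrangements), each of which holds Rikenellaceae or Prevotellaceae. Rikenellaceae over Prevotellaceae was 2.05, 0.99, 0.01, 0.26, 3.32 and 0.47 in PET libraries 1 to 6, and -0.78, 0.11, -1.09, -0.72, -0.95 and -0.71 in control libraries 1 to 6. All 6 PET libraries were above 0 and 5 of 6 control libraries below it. The difference of means was 1.87 (exact permutation p = 0.00433, adjusted p = 0.19 over 66 balances). Marinifilaceae over Prevotellaceae averaged 1.32 ± 1.14 in PET libraries and -0.23 ± 0.5 in control libraries (p = 0.00649 by the same exact test, adjusted p = 0.19). Muribaculaceae over Rikenellaceae averaged -0.01 ± 0.52 and 1.23 ± 0.75 (exact permutation p = 0.00866, adjusted p = 0.19), Lachnospiraceae over Rikenellaceae 1.13 ± 0.4 and 1.92 ± 0.42 (p = 0.013 and 0.214, by the same exact test), and Clostridia vadinBB60 group over Rikenellaceae -0.07 ± 0.36 and 0.55 ± 0.44 (p = 0.0216 and 0.286, by the same exact test). The arms overlapped in every one of the 66 balances.

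**Figure D4:**
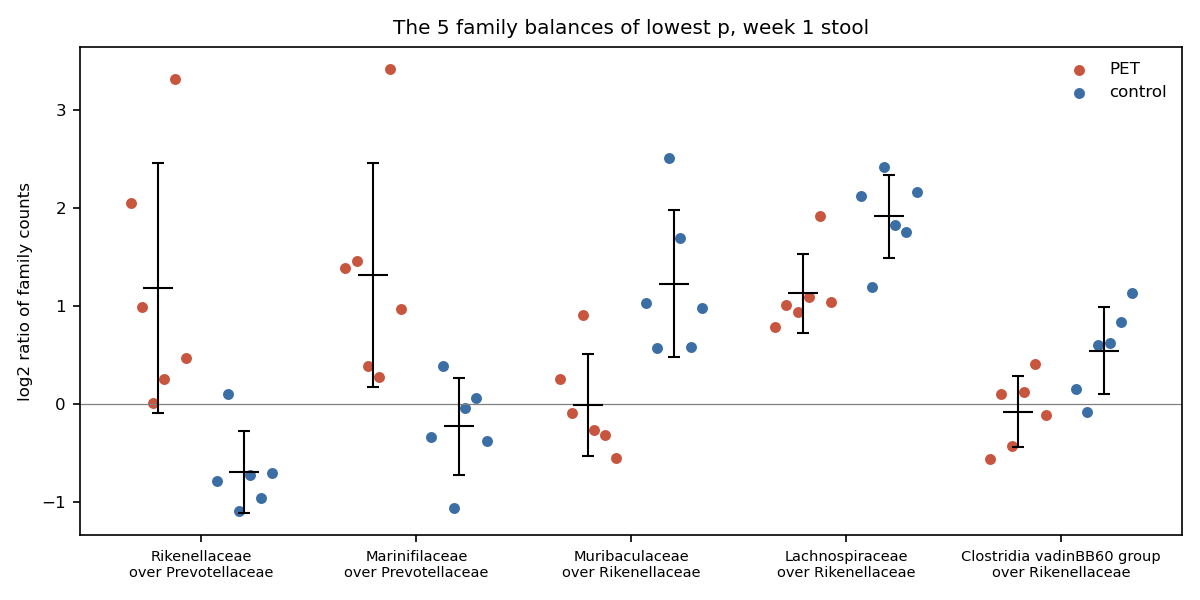
Log2 ratio of counts of 5 family pairs, those of lowest p, in each week 1 stool library, PET left and control right of each pair, with mean and SD. Rikenellaceae over Prevotellaceae lies between 0.01 and 3.32 in PET and between -1.09 and 0.11 in control; the arms overlap in all 5.

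Replacement inside genera was tested by giving each feature its genus total as an offset. Over 592 features of 32 genus labels edgeR called 0 (0%), and 40 had an unadjusted p under 0.05 (6.76%), 31 with a larger part of their genus in PET and 9 with a smaller one. The lowest adjusted p was 0.426. For 21 genus labels with 50 or more counts in every library, the exact permutation test of feature make-up called 0 (0%), with 1 at an unadjusted p under 0.05 (4.76%). In 13 of the 21 the mean distance within PET libraries exceeded that within control libraries, and in 8 the reverse held, with medians of 0.518 and 0.508 over the 21 labels. A feature led its genus label in all 12 libraries only in Bacteroides and Mucispirillum. In most labels the leading feature thus differed between libraries of the same arm.

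Prevotellaceae UCG-001, which made up nearly all Prevotellaceae, showed the sharpest contrast in how alike libraries were. Its mean within-arm distance was 0.581 in PET and 0.0947 in control libraries, a difference that was not tested. The make-up itself did not separate the arms (R2 = 0.196, exact permutation p = 0.154, adjusted p = 0.629). Feature 1 made up 58.2 to 76.2% of the label in every control library and 57.9 to 88.3% in PET libraries 2, 3, 4 and 6, but 0.358 and 1.54% in PET libraries 1 and 5. Feature 2 made up 15.97 to 17.3% of the label in control libraries and 16.4 to 17.25% in PET libraries 3, 4 and 6, and had 0 counts in PET libraries 1, 2 and 5. Feature 3 made up 18.05 and 17.4% in PET libraries 4 and 6, at most 0.103% in the other PET libraries, and 0.42 to 18.65% in control libraries. Features 4 and 5 made up nearly all of the rest: feature 4 was 76.1 and 74.9%, and feature 5 was 23.4 and 23.6%, of the label in PET libraries 1 and 5.

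The total of the label was lower where features 1 to 3 were nearly missing. As shares of all counts, Prevotellaceae UCG-001 took 2.61 and 0.715% of PET libraries 1 and 5, against 4.74 to 7.61% of the other PET libraries and 7.43 to 10.04% of control libraries. Feature 4 took 1.99% of PET library 1 and 0.22 to 0.536% of the other PET libraries, against 0.289 to 0.657% of control libraries. Within the label the log2 change was 2.33 for feature 4 (edgeR adjusted p = 0.444), 2.63 for feature 5 (adjusted p = 0.806), -1.2 for feature 3, -0.97 for feature 2 and -0.4 for feature 1 (each adjusted p = 0.999). The lower Prevotellaceae of the PET arm thus lay in PET libraries 1, 2 and 5, the 3 without feature 2.

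**Figure D5:**
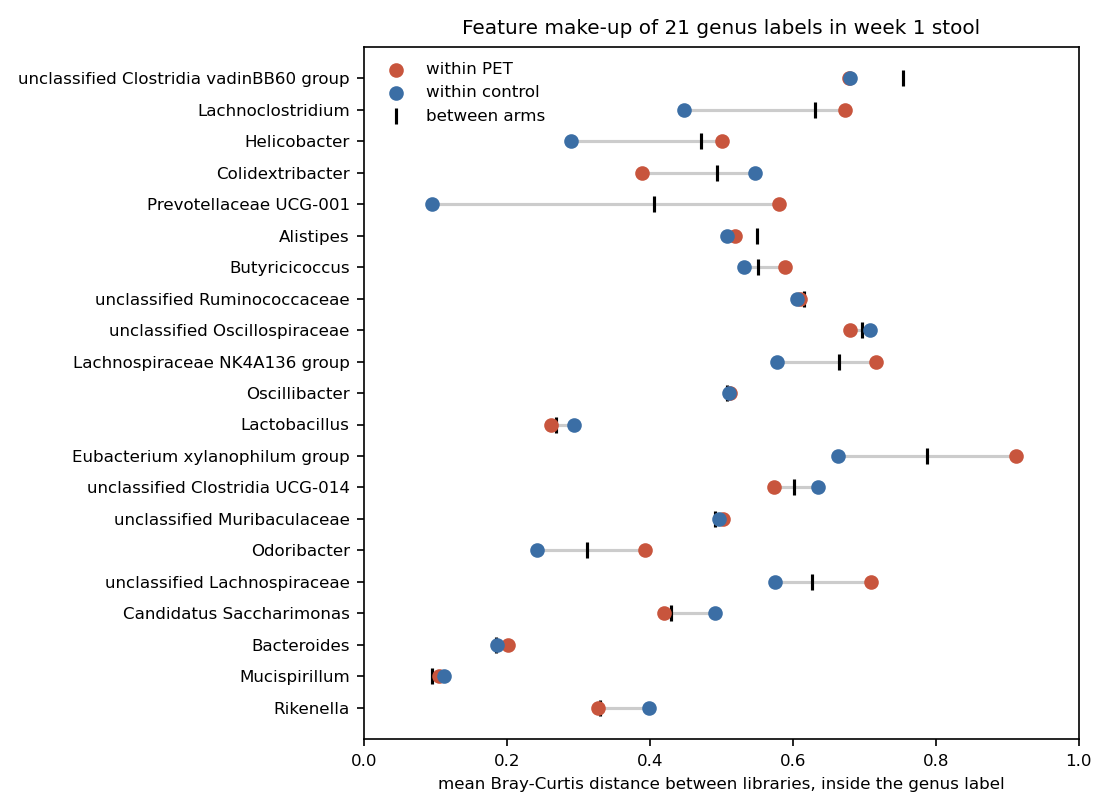
Mean Bray-Curtis distance (0 to 1) between libraries in the feature make-up of 21 genus labels, within PET, within control and between arms (bar), in order of the exact permutation p from the top. Prevotellaceae UCG-001 shows 0.581 within PET and 0.0947 within control, and 13 of the 21 labels lie further apart within PET than within control.

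Clostridia vadinBB60 group had the lowest p of the 21 (R2 = 0.177, exact permutation p = 0.0368, adjusted p = 0.629), with distances of 0.678 within PET and 0.679 within control. Feature 1 made up 49, 28.4, 29.15 and 35% of the group in PET libraries 1, 2, 4 and 6, 5.57 and 1.21% in PET libraries 3 and 5, and 1.18 to 7.43% in control libraries (within-genus log2 2.62, edgeR adjusted p = 0.426). Feature 2 made up 0 to 3.88% in PET libraries, and 14.2, 20.8, 29.2 and 19.6% in control libraries 1, 4, 5 and 6 with 0 in the other two (log2 -3.43, adjusted p = 0.999). Feature 1 led in 4 PET libraries and in no control library, and feature 2 led in 3 control libraries and in no PET library. Feature 3 averaged 0.571% of all counts in PET and 0.529% in control, and feature 5 averaged 0.112 and 0.455%. The total of the group was nearly the same in the arms, 8.74% and 7.9%.

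In Alistipes, feature 5 made up 0 to 4.95% of the genus in PET libraries, and 21.1, 21.5, 28.03 and 21.01% in control libraries 1, 4, 5 and 6 with at most 0.183% in the other two (within-genus log2 -3.36, adjusted p = 0.999). Control libraries 1, 4, 5 and 6 are also those with vadinBB60 feature 2. Feature 4 was in 4 PET and 3 control libraries, at up to 43.1 and 14.99% of the genus. Feature 7 averaged 0.395% of all counts in PET and 0.138% in control, and feature 6 averaged 0.262 and 0.288%. The genus took 6.68% ± 1.52 of PET and 4.25% ± 1.19 of control libraries, and leading features changed from library to library in both arms (exact permutation p = 0.18, adjusted p = 0.629).

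Lachnoclostridium, a clostridial genus, and Butyricicoccus, a butyrate producer, were likewise patchy. Lachnoclostridium feature 1 led 5 of 6 control libraries, at 49.03 to 65.9% of the label, and 1 of 6 PET libraries, at 36.97%. In the other PET libraries the lead was held by feature 4 (72.02% in PET library 1), feature 3 (36.9% in PET library 2), feature 5 (76.2% in PET library 3) and feature 2 (53.03 and 57.9% in PET libraries 4 and 5). Feature 5 also led control library 3, at 81.06%. The make-up did not separate the arms beyond the spread (R2 = 0.171, exact permutation p = 0.102, adjusted p = 0.629). Butyricicoccus feature 1 led PET libraries 1, 5 and 6 and control libraries 1 and 6, and feature 2 led PET libraries 2 and 3 and control libraries 2, 3, 4 and 5. Butyricicoccus feature 4 averaged 0.0807% of all counts in PET and 0.0326% in control, and feature 5 averaged 0.0324 and 0.0293%.

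Colidextribacter, an Oscillospiraceae genus, was more alike within PET, at a mean distance of 0.389, than within control, at 0.548 (R2 = 0.131, exact permutation p = 0.134, adjusted p = 0.629). Its feature 7 made up 7.64 and 0.6254% of the genus in PET libraries 5 and 6 and 0 in the other PET libraries, against 15.04, 23.75 and 25.4% in control libraries 1, 4 and 6 and 0 in the other control libraries. Feature 5 averaged 0.0433% of all counts in PET and 0.12% in control, feature 6 averaged 0.107 and 0.0344%, and feature 9 averaged 0.0686 and 0.0278%. Unclassified Ruminococcaceae feature 2 averaged 0.134% in PET and 0.0266% in control, feature 6 averaged 0.0575 and 0.00774%, feature 5 averaged 0.0228 and 0.0539%, and feature 8 averaged 0.0172 and 0.03%. All of these features were missing from some libraries of each arm apart from feature 9 of Colidextribacter, which was in all 6 PET libraries. Within their genus each had an adjusted p of 0.999.

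Between genera of 1 family, Desulfovibrionaceae, sulfate and sulfite reducers that form hydrogen sulfide, had the lowest p of 16 families tested for make-up (R2 = 0.245, exact permutation p = 0.0195, adjusted p = 0.294), with 0 of 16 called (0%) and 2 at an unadjusted p under 0.05 (12.5%). Its mean distance was 0.597 within PET and 0.0782 within control libraries. An unclassified feature made up 80.06 to 95.1% of the family in control libraries and 55.03 to 87.7% in PET libraries 2, 3, 5 and 6, and had 0 counts in PET libraries 1 and 4. In PET library 1 Bilophila feature 1, of a genus that reduces taurine-derived sulfite, made up 87.2% of a family that took 0.0999% of all counts. The family took 0.0999 to 1.51% of PET and 0.492 to 1.91% of control libraries. Its means were 0.485% ± 0.528 and 1.1% ± 0.532, lower in PET (log2 -1.32 ± 0.64, edgeR adjusted p = 0.42; exact permutation p = 0.0346, adjusted p = 0.255). This family and its features were singled out after their values were seen.

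Some features moved in fixed ratio. A bacterial genome can carry several 16S genes that differ in sequence, so that features need not stand for separate organisms. Of 381 pairs of common features within a genus label, 9 had a log2 ratio that varied between libraries with an SD under 0.2. Bacteroides features 4 and 5 kept a ratio of 1.36 to 1.57 over 12 libraries. Prevotellaceae UCG-001 features 4 and 5 kept a ratio of 2.93 to 3.64 over 11 libraries, and features 1 and 2 of the same label 3.36 to 4.72 over the 9 that held both. PET libraries 1, 2 and 5 held feature 1 without feature 2, at 0.358, 88.3 and 1.54% of the label. Whether such pairs share a genome was not tested.

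Lists of genera and families are described by their counts, beside 435 of all 728 features higher in PET and a median log2 of 0.29. That median was 0.10 without PET library 6, and the lists were not counted again without it. No listed feature passed the adjusted threshold. Of butyrate producers 36 of 57 tested features were higher (median log2 0.54), 2 of them at an unadjusted p under 0.05, and the list summed to 12.6% ± 2.76 in PET and 9.75% ± 2.96 in control. Most of both sums was Odoribacter, at 10.2% ± 3.09 and 7.6% ± 2.59. Lactic acid bacteria and bifidobacteria had 7 of 18 higher (median -0.58), and summed to 3.7% ± 1.38 and 5.22% ± 3.5. Mucus-associated genera had 4 of 8 higher (median -0.02), and the sulfate and sulfite reducing genera 4 of 4 (median 0.7). The latter list, Desulfovibrio and Bilophila, leaves out the unclassified feature that made up most of Desulfovibrionaceae in control libraries. That feature went the other way, at 0.342% in PET and 0.988% in control (edgeR adjusted p = 0.998), as did the family as a whole. Of 231 Lachnospiraceae features 89 were lower and the others higher (median 0.53). In the other families 47 of 79 Oscillospiraceae (0.28), 31 of 46 Ruminococcaceae (0.45), 27 of 59 Muribaculaceae (-0.07), 7 of 9 Marinifilaceae (0.57), 5 of 11 Bacteroidaceae (-0.05) and 3 of 7 Prevotellaceae (-0.62) were higher. So were 2 of 4 Tannerellaceae (-1.75), 4 of 14 Lactobacillaceae (-0.66), 2 of 5 Helicobacteraceae (-0.39) and 2 of 4 Erysipelotrichaceae (0.04), and 1 of 3 mouth and airway features (-1.26). Lachnospiraceae held 13 of the 47 features higher and 5 of the 11 lower at an unadjusted p under 0.05.

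Genera known as reagent contaminants were higher in every PET library than in control libraries 2 to 6, and by far the most abundant in PET library 6. All 5 of their tested features were higher in PET (median log2 4.98), 4 of them at an unadjusted p under 0.05, and they summed to 0.155% ± 0.326 in PET and 0.01% ± 0.00494 in control libraries. PET library 6, the library with 1037 features of its own, held 0.82%, the lowest PET library 0.0164% and the highest control library 0.0124%. Control library 1 had 0 counts of these genera. At its depth 3 counts make 0.0182%, above the lowest PET sum, so that it cannot be placed below the PET libraries. Burkholderia-Caballeronia-Paraburkholderia feature 1, named after its values were seen, was the second of 2 features of 728 whose arms did not overlap (0.275%). It took 0.616% of PET library 6 and 0.0127 to 0.0183% of the other 5, against 0 to 0.0121% of control libraries (log2 3.93 ± 1.65, edgeR adjusted p = 0.433). The 0 is that of control library 1, where the limit of 0.0182% leaves an overlap with PET libraries possible. Leifsonia feature 1 was at 0.0993% in PET library 6 and at most 0.00348% in the others. Skin and bedding genera had 1 tested feature, higher in PET, and their sums stayed at or below 0.00325%. The part of these genera in the other results was not tested.

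The exposure effect of week 1 was also set against that of day 28, sampled in 6 PET and 6 control libraries. With 12 mice in the series, the 24 stool libraries share animals, but the labels do not tie them, and the fit took them as independent. No feature of 964 passed the test of a different effect at the 2 times (edgeR interaction, 0% called, lowest adjusted p = 0.123), with 152 at an unadjusted p under 0.05 (15.8%). At day 28 alone edgeR called 0 of 737 features (0%), with 43 at an unadjusted p under 0.05 (5.83%). The patterns of week 1 were seen again, but no longer on 1 side. Helicobacter feature 3 led the genus at day 28 in PET libraries 1, 3 and 6, at 70.3, 93.7 and 75.7%, and in control library 6, at 76.4%, and in these 4 Helicobacter feature 2 made up at most 0.0926%. Prevotellaceae UCG-001 features 4 and 5 made up nearly all of the label in PET libraries 1 and 5 and in control library 6, where feature 4 alone made up 77.6, 77.25 and 77.3%. Library numbers at the 2 times name samples only, and whether the same mice carried these patterns was not tested. VadinBB60 feature 1 took 0.00161 to 3.11% of day 28 PET libraries and 0.321 to 1.595% of control libraries.

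Rikenellaceae averaged 8.48% in PET and 7.51% in control libraries at day 28, and Prevotellaceae 4.56 and 6.21%. The difference between the times did not pass the threshold for either (interaction adjusted p = 0.974 and 0.765, edgeR). Of 67 families 3 were called (4.48%) in this interaction, which was added after the data were seen: Burkholderiaceae, Microbacteriaceae and Coriobacteriaceae, each with an edgeR adjusted p of 0.0495. Burkholderiaceae took 0.616% of week 1 PET library 6 and 0.98% of day 28 control library 1, and at most 0.0183% of any other stool library. Microbacteriaceae took 0.102 and 0.137% of these 2 libraries, and Coriobacteriaceae 0.0224 and 0.0198%. The calls lay close to the threshold: TMMwsp scaling, DESeq2 and limma called 0 families, and so did the edgeR fits without any 1 of the 6 week 1 control libraries, any 1 of the 6 day 28 PET libraries, week 1 PET library 2, 3 or 6, or day 28 control library 1 or 4. The lowest adjusted p was 0.27 without week 1 PET library 6 and 0.29 without day 28 control library 1.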

How the data were processed

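Bacterial 16S rRNA V3 to V4 amplicons were counted per sequence feature. The deposited table holds whole-number counts per feature and library, not normalized, per the file headers, and the deposited taxonomy lists lineages with the confidence of the classifier as a fraction. Cutadapt, Bowtie2 and GRCm39 are named per the submitters' processing notes; no denoiser or classifier is named (not given in the sources used here). Features without a prokaryote lineage, chloroplasts and mitochondria were left out. Features, families and the interaction with time were tested with the quasi-likelihood test of edgeR 4.0.16 (R 4.3.3, TMM), with Benjamini-Hochberg adjustment and a threshold of 0.05; within-genus tests took the genus total as offset. Balances (pseudocount 0.5) and make-up (Bray-Curtis, PERMANOVA over 462 splits) were tested by exact permutation in Python 3.11.15; the smallest balance p is 0.00216. DESeq2 1.42.0, limma 3.58.1, other scalings and filters, and each library left out were alternatives. The test code was run on simulated data, which were not set to copy features missing from whole libraries. Named are the 12 most abundant features, the 8 of lowest p in each direction where fewer than 5 passed, features of 0.1% or more whose arms did not overlap, the 12 families, the 5 balances of lowest p, and the 2 most raised and 2 most lowered features of the 8 genus labels of lowest p. A fold against an arm at 0 is a lower bound, from 3 counts over the pooled arm. Standard errors of edgeR log2 fold changes were worked back from the test, as the size of the change over the square root of its F value. For features at 0 in an arm they depend on how edgeR sets that change. Members, lists and tests were chosen with earlier results of these data known.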

Additional observations from a re-analysis of the deposited data

Results flagged for a closer look

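In 81 sets of 6 values, 16 held a library further from the others than Dixon's 95% critical value for 6 values. Chance passes that value in about 1 set in 20 only where values are normally distributed. Many of these sets are shares with 0s, and a set with 1 value above 0 is always flagged. The count of 16 can therefore not be set against that rate. Among PET libraries, library 6 held 1656 features, library 3 held 3.25% Tannerellaceae, and library 5 had a log2 balance of 1.92 for Lachnospiraceae over Rikenellaceae. PET library 4 held 0.0127% of Lachnospiraceae NK4A136 group feature 8, 1.22% of Odoribacter feature 8 and 5.83% of unclassified Lachnospiraceae feature 1. PET library 1 held 0.2885% of UCG-003 feature 1, PET library 2 held 0.0371% of unclassified RF39 feature 3, and PET library 6 held 0.000277% of Lachnospiraceae NK4A136 group feature 51.

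Among control libraries, library 1 had 16521 total counts, 3.65% of Lactobacillus feature 1 and 0.0787% of Lachnospiraceae NK4A136 group feature 51. Control library 3 held 7.82% Tannerellaceae and 12.28% of unclassified Muribaculaceae feature 1. Control library 5 held 0.0724% of vadinBB60 feature 73, and control library 2 had a log2 balance of 0.11 for Rikenellaceae over Prevotellaceae.

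The exposure effect at week 1 minus that at day 28 passed the edgeR test for Burkholderiaceae (7.92 on the log2 scale), Coriobacteriaceae (10.8) and Microbacteriaceae (10.18). Each had an adjusted p of 0.0495, and TMMwsp, DESeq2 and limma called none of them. With week 1 PET library 6 left out the lowest adjusted p over all families was 0.27, and with day 28 control library 1 left out it was 0.29.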

How the results depend on the processing

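At the level of features edgeR called 0 of 728 (0%), DESeq2 8 of 671 with an adjusted p (1.19%) and limma on centred log ratios 1 of 728 (0.137%). With a filter on total count alone, which lets in features of 1 library, edgeR called 15 of 2048. There 435 had an unadjusted p under 0.05, and the median log2 fold change was 4.08. A stricter filter called 0 of 421, with 11 at an unadjusted p under 0.05. With 1 library left out edgeR called 0 to 1 features: Helicobacter feature 3 without PET library 3 and Lachnospiraceae NK4A136 group feature 8 without PET library 4. Within genera it called 0 to 1, the 1 without PET library 4. DESeq2 called 1 family of 59. For the interaction with time, DESeq2 called 77 of 964 features fitted and the total count filter 16 of 2449, against 0 of 964. Over 67 families TMMwsp, DESeq2 and limma called 0 each, against 3, and fits without 1 library called 0 to 3. The causes were not tested. Balances and make-up called 0 under every alternative run. No paired analysis was possible because the labels tie no library to an animal and replicate numbers follow accession order. The median log2 fold change of all features was 0.29 under TMM, 0.43 under TMMwsp and 0.34 under plain library totals, while DESeq2 gave 0.25 and limma 0.15.

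Small differences changed sign. Bacteroides feature 1 (-0.05) was 0.16 with TMMwsp, 0.017 with library totals, 0.073 with limma, 0.11 with the total count filter, 0.084 with the stricter filter and 0.021 in the exact test. Families with library totals, all features of the table and the exact test gave 0.023, 0.056 and 0.0072 for Lachnospiraceae, 0.0031, 0.0098 and 0.021 for Bacteroidaceae, 0.14, 0.21 and 0.17 for Clostridia vadinBB60 group (0.032 with TMMwsp), and 0.038, 0.072 and 0.11 for Helicobacteraceae. The exact test gave 0.21 for Tannerellaceae, -0.037 for Odoribacter feature 1, and within the genus -0.43 for Butyricicoccus feature 4 and 0.24 for unclassified Ruminococcaceae feature 8.

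With 1 library left out, log2 values spanned 0 for unclassified Muribaculaceae feature 1 (-1.99 to 0.62; positive without control library 3), unclassified Lachnospiraceae feature 1 (-0.30 to 1.53; negative without PET library 4) and Bacteroides feature 1 (-0.23 to 0.24). So did those of Lachnospiraceae (-0.33 to 0.10), Bacteroidaceae (-0.53 to 0.11), Clostridia vadinBB60 group (-0.23 to 0.37), Helicobacteraceae (-0.42 to 0.13) and Tannerellaceae (-1.97 to 0.10). Within genera this held for Butyricicoccus feature 4 (-0.31 to 2.50), Alistipes feature 6 (-2.20 to 0.39), vadinBB60 feature 3 (-0.45 to 2.55) and unclassified Ruminococcaceae feature 8 (-1.98 to 0.20).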
